A study of Mus musculus with 6 samples.

Results

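Imprinted genes, which are expressed mainly from the maternal or the paternal chromosome, were followed through an experiment on Geminin in mouse embryonic stem cells. The group was a fixed list of 35 gene symbols. Each gene was read from the probe set annotated to that symbol alone with the highest mean signal over all arrays. Such a probe set was found for 32 of the 35, and 27 of them had a mean signal above 20.1, a limit under which 30% of all probe sets fell, and were tested among 14185 genes. H19, Zrsr1 and Rtl1 had no probe set of a single symbol. Snrpn, Nnat, Asb4, Usp29 and Zim1 were below the limit and were not tested.

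At an imprinted locus, DNA methylation set in the egg or the sperm marks 1 parental copy of a control region, and the mark decides which copy of the genes nearby is transcribed. Most imprinted genes lie in clusters, where a long noncoding RNA from 1 parental chromosome often accompanies protein-coding genes expressed from the other. Many control fetal growth, as in the pair of the growth factor Igf2 and the receptor Igf2r that clears it, and cultured embryonic stem cells are known to gain or lose imprints over time. The arrays measured total transcript and did not separate the parental alleles.

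The cells were derived from the embryonic stem cell line ES-E14TG2a (129P2 strain) and had spent 2 days in N2B27, a serum-free medium for neural commitment, and the labels call them neurectoderm. Every culture, controls included, carried an inducible microRNA-style hairpin (shRNAmir) against Geminin, whose gene is Gmnn. GemKD cultures received 500 ng doxycycline (Dox) and uninduced controls none, and RNA of 3 GemKD and 3 control cultures was hybridised to 1 Affymetrix Mouse Genome 430 2.0 array each. Experiments 1 and 3 used cells with shRNAmir 11 and experiment 2 used cells with shRNAmir 9. The labels do not say whether experiments 1 and 3 shared a clone. Since shRNAmir 9 was used in 1 experiment only, its hairpin, cell line and experiment cannot be told apart. Since every GemKD culture also had Dox, Dox and knockdown cannot be told apart either.

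Gmnn in GemKD stood at 27.6%, 48% and 36.7% of its control in experiments 1, 2 and 3, so the target was lower in every GemKD array than in its control. The median signal was 59.3 to 60.9 on the 6 arrays, whose number limits the precision. Experiment 3 stood apart: the log2 difference between arrays had, across 7092 bright genes, an SD of 0.125, 0.149 and 0.133 within experiments 1, 2 and 3, 0.09 to 0.159 between experiments 1 and 2, and 0.319 to 0.362 between experiment 3 and either of the others. Sox1, a neural progenitor factor, averaged 2439, 2197 and 550.0 in experiments 1, 2 and 3, Nanog, a naive pluripotency factor, 2073, 1991 and 314.8, and Fgf5, a marker of primed epiblast, 107.5, 146.4 and 620.5. Results are therefore given by experiment throughout. All signals below are linear, all log2 differences are differences of the log2 of the signal plus 16, and where an experiment has a pair of signals the control comes first and GemKD second.

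The listed genes covered a wide range of signals, which are levels of different probe sets and are not set against each other as amounts of RNA. Among the tested genes 14 had a mean above 500. Meg3, the maternally expressed noncoding RNA of the Dlk1-Meg3 cluster, was above 99.3% of all probe sets, Gnas, which encodes the stimulatory G protein alpha subunit, above 99%, and Grb10, an adaptor that restrains insulin and growth factor signalling, above 98%. The growth inhibitor Cdkn1c lay above 96.6%, the mesoderm-associated hydrolase Mest above 95.8%, and the noncoding RNAs Rian and Mirg above 94% and 93.7%. Dlk1, the paternally expressed membrane ligand next to Meg3, was at 81.4 and 116.5 in experiment 1, 123.7 and 96.2 in experiment 2 and 112.2 and 163.3 in experiment 3, and the arrays of the 3 experiments overlapped. The single-symbol probe set of Snrpn, a spliceosome protein gene, was dim in every array, with a highest signal of 28.5 and a lowest of 8.8. By contrast, 4 probe sets annotated to both Snurf and Snrpn, which were not used for the gene, had means of 3189 to 3902. Mean signals of the other genes under the limit were 9.05 for Nnat, 17.0 for Asb4, 11.95 for Usp29 and 13.1 for Zim1.

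**Figure D1:**
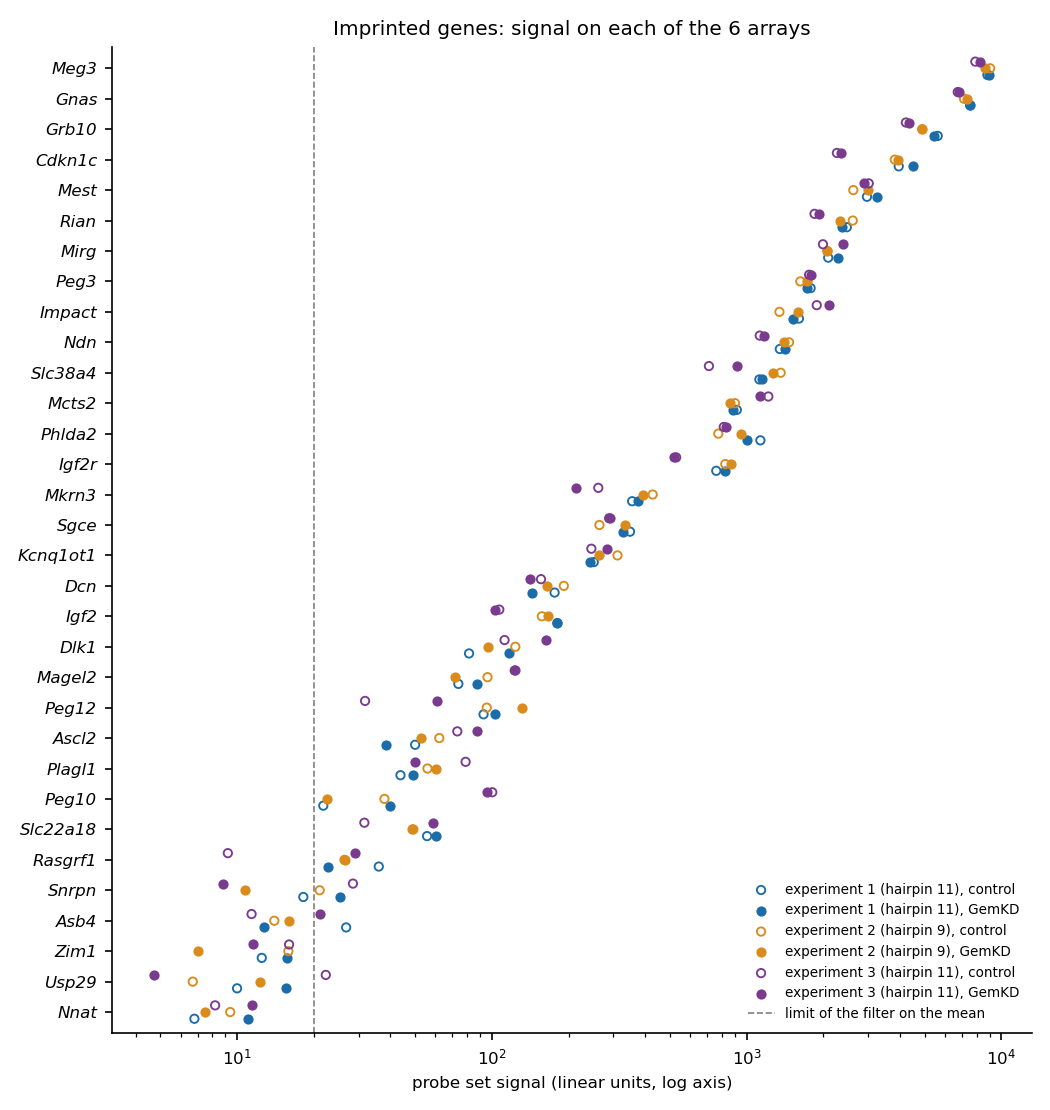
Signal of the 32 imprinted genes with a probe set of 1 symbol on each of the 6 arrays, on a log axis, ordered by mean. Open circles are controls and filled circles GemKD, colours are experiments, and the dashed line is the limit of 20.1 on the mean; Cdkn1c, Igf2r and Igf2 show both arrays of experiment 3 to the left of the 4 others and Peg10 shows them to the right.

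The first comparison asked how the levels differed between cultures of the 2 hairpins and between experiments of 1 hairpin. No listed gene was called in the shRNAmir 9 cells against both shRNAmir 11 experiments, while the shRNAmir 11 experiments differed from each other. Between experiments 3 and 1, which share the hairpin, 12 of 27 genes were called lower and 5 higher in experiment 3 (limma, adjusted p under 0.05). Of all 14185 genes, 18.8% were called lower and 9.81% higher in the same contrast, or 28.6% in either direction against 17 of the 27. With a difference of at least 1.5-fold required too, 4 imprinted genes were lower and 2 higher, against 6.38% and 3.09% of all genes, or 9.47% in all. Both arrays of experiment 3 were the lowest of the 6 for 11 imprinted genes and the highest for 5, against 31% and 19.7% of all genes. Among genes with a mean signal above 500, 9 of 14 imprinted genes were called lower and 2 higher, against 24.9% and 12.8% of 5662 such genes. Of these 9, Meg3, Rian, Ndn, Phlda2, Gnas and Slc38a4 were not called without the intensity trend of the fit. The median of the log2 differences was -0.151 over the 27 genes and -0.047 over all genes, and the median of their sizes was 0.369 and 0.193. These p-values rest on the 2 arrays of an experiment, which are its control and its GemKD arm, so they measure the spread between arrays and not between repeats of an experiment. With bulk RNA, fewer cells of a type and less RNA per cell cannot be told apart.

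Several growth regulators were among the genes that were lower in experiment 3. Cdkn1c, the maternally expressed inhibitor of G1 cyclin-dependent kinases, had signals of 3957 and 4497 in experiment 1, 3819 and 3938 in experiment 2 and 2263 and 2338 in experiment 3. Both arrays of experiment 3 lay well under the 4 others, and the difference from experiment 1 was -0.87 (SE 0.055, 1.83-fold lower, adjusted p = 3.78e-08). Igf2, the paternally expressed growth factor, had 180.8 and 180.4, then 157.2 and 166.4, then 107 and 103 (-0.70, SE 0.135, adjusted p = 0.00134). Its arrays of experiment 3 were again the lowest of the 6, but with its probe sets averaged Igf2 was not called (-0.42, adjusted p = 0.074). That average included its only other probe set, which was under the limit, with signals of 1 to 4.8. Igf2r, the maternally expressed receptor that carries Igf2 to the lysosome, had 760.4 and 821.5, then 825 and 865, then 529.2 and 520.2 (-0.58, SE 0.0885, adjusted p = 2.12e-04), and its second probe set gave -0.63. The factor and its clearance receptor were thus both lowest in experiment 3.

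Grb10 had 5629 and 5455 in experiment 1, 4892 and 4895 in experiment 2 and 4222 and 4356 in experiment 3. The difference from experiment 1 was -0.37 (SE 0.0455, adjusted p = 3.09e-05). The 3 experiments did not overlap on this probe set, its brightest. Arrays of experiments 2 and 3 overlapped on the dimmer Grb10 probe sets, with mean signals of 656.1 and 431. There experiment 2 minus experiment 3 was -0.059 and -0.104, against 0.19 on the brightest. Both were lower in experiment 3 than in experiment 1 (-0.421 and -0.325, adjusted p = 0.0372 and 0.146 in the fit over all probe sets). Phlda2, a maternally expressed inhibitor of placental growth, had 1133 and 1008, then 774.5 and 950.5, then 814 and 828.4 (-0.37, SE 0.1, adjusted p = 0.0118). Experiments 2 and 3 overlapped for Phlda2, and without the control array of experiment 1 its difference was -0.21 and was not called (adjusted p = 0.313). Slc38a4, a paternally expressed amino acid transporter, had 1123 and 1148, then 1361 and 1268, then 711.7 and 919.5 (-0.48, SE 0.0988, adjusted p = 0.00209). Its second probe set gave -0.81, and without the control array of experiment 3 the first gave -0.28 (adjusted p = 0.0259). Gnas had 7544 and 7532, then 7140 and 7329, then 6745 and 6828, a difference of -0.15 (SE 0.0381, adjusted p = 0.0081) that was not called without the control array of experiment 1 (-0.14, adjusted p = 0.125). It was one of the smallest differences called, and a dimmer Gnas probe set, with a mean signal of 112.3, was higher in experiment 3 by 0.74 (adjusted p = 0.00975 in the fit over all probe sets).

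**Figure D2:**
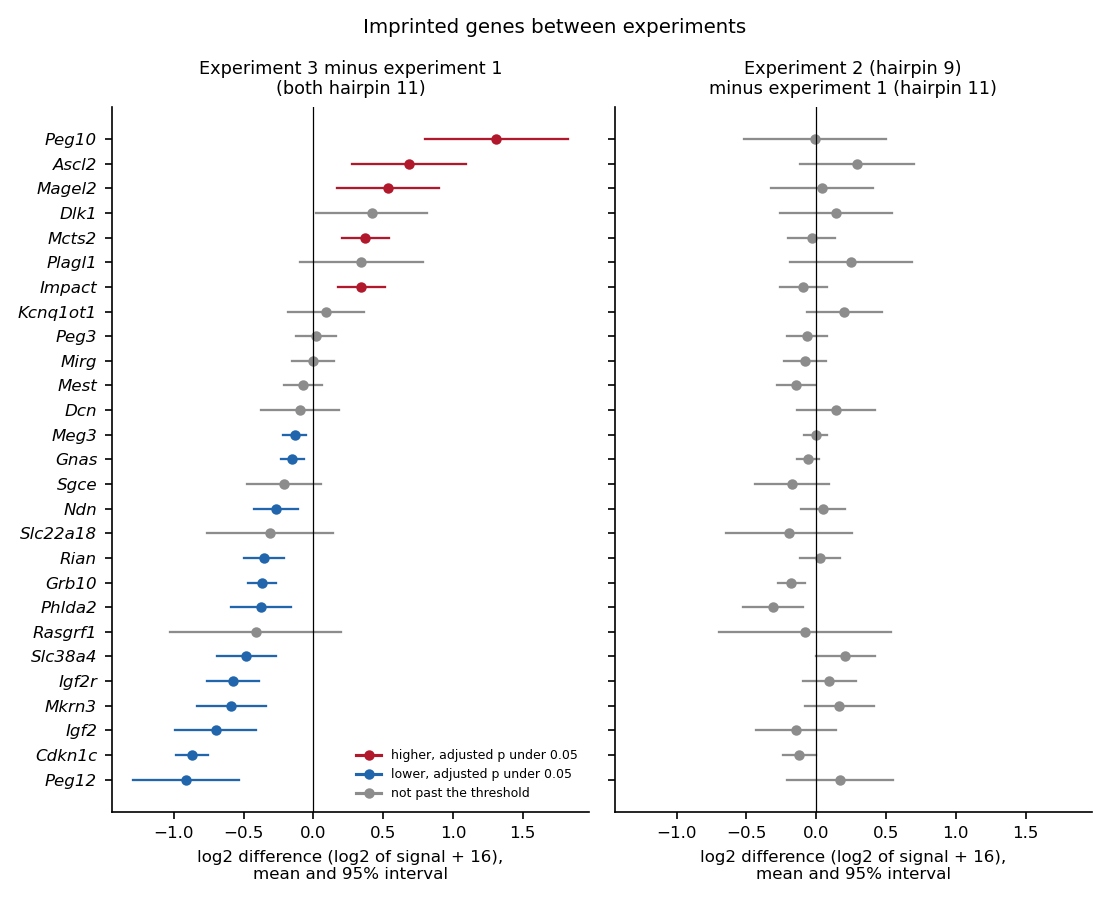
Log2 differences of the 27 tested imprinted genes between experiments, as points with 95% intervals; red and blue mark adjusted p under 0.05. On the left, experiment 3 minus experiment 1 runs from -0.91 for Peg12 to 1.31 for Peg10, and on the right, experiment 2 minus experiment 1 runs from -0.311 to 0.294 with none past the threshold.

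The cluster of Ndn, Magel2, Mkrn3 and Peg12 is paternally expressed, and in the RefSeq gene table these 4 genes follow each other with 0 genes between neighbours. Ndn and Magel2 encode MAGE family proteins, Mkrn3 a makorin ring finger protein and Peg12 a Frat-like regulator of GSK3. Peg12 had 92.8 and 103.1 in experiment 1, 95.5 and 131.4 in experiment 2 and 31.8 and 60.8 in experiment 3 (-0.91, SE 0.178, adjusted p = 0.00145). Mkrn3 had 355.5 and 373.5, then 428 and 393.9, then 261.8 and 214.5 (-0.59, SE 0.116, adjusted p = 0.00155). Ndn had 1351 and 1421, then 1468 and 1405, then 1127 and 1166 (-0.27, SE 0.0736, adjusted p = 0.0129), and its 6 probe sets above the limit all had negative differences, of which 1 passed the test in the fit over all probe sets. Magel2, between Ndn and Mkrn3, went the other way, with 73.9 and 87.1, then 96.2 and 71.6, then 123 and 123.7 (0.53, SE 0.171, adjusted p = 0.0297). Neighbours in this cluster therefore differed in opposite directions between experiments 1 and 3. The calls were not alike in firmness. Without the GemKD array of experiment 1, Mkrn3 gave -0.46 (adjusted p = 0.0511) and Ndn -0.23 (0.184), and without its control array Ndn gave -0.31 (0.0518) and Magel2 0.35 (0.365). Magel2 was also not called without the GemKD array (0.49, 0.101) or the control array (0.58, 0.055) of experiment 3. The 250 bases before the start of each of these genes are shown because the neighbours differed in direction, with CpG dinucleotides, the sites of DNA methylation, in capitals. They are from RefSeq on GRCm38.p6, 5′ to 3′ on the strand of the gene.
Ndn, chr7:62348027-62348276, plus strand: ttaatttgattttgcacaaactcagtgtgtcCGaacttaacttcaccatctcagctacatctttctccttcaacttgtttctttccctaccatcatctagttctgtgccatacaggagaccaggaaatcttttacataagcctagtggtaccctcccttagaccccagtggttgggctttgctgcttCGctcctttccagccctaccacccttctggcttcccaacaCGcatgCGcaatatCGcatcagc
Magel2, chr7:62376729-62376978, plus strand: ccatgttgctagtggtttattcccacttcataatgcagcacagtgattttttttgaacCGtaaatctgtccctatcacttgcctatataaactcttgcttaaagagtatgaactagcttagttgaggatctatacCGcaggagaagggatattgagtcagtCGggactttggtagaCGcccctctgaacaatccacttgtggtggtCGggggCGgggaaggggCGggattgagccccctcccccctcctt
Mkrn3, chr7:62420154-62420403, minus strand: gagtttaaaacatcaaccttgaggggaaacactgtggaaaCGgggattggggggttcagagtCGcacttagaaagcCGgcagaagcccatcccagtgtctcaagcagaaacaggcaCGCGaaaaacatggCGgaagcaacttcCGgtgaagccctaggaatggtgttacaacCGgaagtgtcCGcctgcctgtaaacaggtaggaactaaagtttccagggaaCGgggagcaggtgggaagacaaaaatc
Peg12, chr7:62464511-62464760, minus strand: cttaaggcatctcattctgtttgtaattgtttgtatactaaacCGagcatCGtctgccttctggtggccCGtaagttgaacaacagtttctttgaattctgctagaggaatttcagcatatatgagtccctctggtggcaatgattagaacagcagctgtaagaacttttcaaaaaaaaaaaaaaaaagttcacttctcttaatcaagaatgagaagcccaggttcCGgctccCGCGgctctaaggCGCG
They held 5, 7, 10 and 8 CpG dinucleotides in that order, against a median of 6 over 32851 such windows of all genes in the table. The arrays did not measure methylation.

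Higher levels in experiment 3 were found for Magel2 and 4 others. Peg10, a paternally expressed gene derived from a retrotransposon and needed in the placenta, had 21.8 and 39.9 in experiment 1, 37.9 and 22.5 in experiment 2 and 100.4 and 95.7 in experiment 3 (1.31, SE 0.238, 2.48-fold higher, adjusted p = 8.5e-04). Peg10 was dim in experiments 1 and 2, so its difference depended on the constant added before the log, with 1.70 for a constant of 1 and 0.78 for 64, and it was called with each. Sgce, which encodes epsilon-sarcoglycan and starts next to Peg10 with 0 genes between, had a difference of -0.21 (95% interval -0.47 to 0.05) and was not called. Ascl2, a maternally expressed transcription factor of the trophoblast, had 50 and 38.3, then 62.2 and 52.8, then 73.2 and 87.7 (0.69, SE 0.192, adjusted p = 0.015). Its level was dim, and Ascl2 was not called when the experiment 1 GemKD culture was left out (0.54, adjusted p = 0.179) or that of experiment 3 (0.46, adjusted p = 0.149). Impact, a paternally expressed regulator of the GCN2 kinase, had 1606 and 1525, then 1346 and 1596, then 1886 and 2098 (0.34, SE 0.0784, adjusted p = 0.00434). Both arrays of experiment 3 were the highest, and without the GemKD array of experiment 1 the difference was 0.21 (adjusted p = 0.193). Mcts2, a paternally expressed retrogene that encodes a translation factor, had 915.8 and 888.2, then 901 and 862.5, then 1218 and 1127 (0.37, SE 0.0789, adjusted p = 0.00264), with no overlap between experiment 3 and the others. Without the intensity trend in the fit, 9 of the 17 genes were called, and Meg3, Rian, Ndn, Magel2, Phlda2, Impact, Gnas and Slc38a4 were not. With the probe sets of each gene averaged 11 were called, and Igf2, Meg3, Rian, Ndn, Impact and Gnas were not. These averages included probe sets under the limit.

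The maternally expressed RNAs of the Dlk1-Meg3 cluster differed by probe set. Meg3 had 8823 and 8918 in experiment 1, 9043 and 8659 in experiment 2 and 7907 and 8262 in experiment 3 on its brightest probe set, a difference of -0.13 (SE 0.0389, adjusted p = 0.0182). Leaving out the experiment 1 GemKD culture gave -0.13 (adjusted p = 0.127), its control -0.14 (adjusted p = 0.0775) and the experiment 3 control -0.09 (adjusted p = 0.175), so Meg3 was not called in any of these. Rian had 2475 and 2370, then 2612 and 2336, then 1849 and 1932 (-0.36, SE 0.0659, adjusted p = 9.98e-04). Mirg had 2092 and 2284, then 2077 and 2060, then 1995 and 2388 (-0.002, 95% interval -0.15 to 0.15), and its arrays overlapped between experiments. When all 31526 probe sets above the limit were fitted, which was done after the values had been seen, 4 of the 11 probe sets of Meg3 were called lower and 3 higher. In that fit 12.7% of all probe sets were called lower and 8.22% higher. The 6 brightest Meg3 probe sets, with mean signals of 3492 to 8602, all had negative differences, down to -0.29 (adjusted p = 0.0036). The 5 dimmest, with means of 104.9 to 918.3, all had positive ones, up to 0.88 (adjusted p = 0.00232). The direction of Meg3 between experiments 3 and 1 thus depended on the probe set, and the mean over its probe sets was 0.10 (adjusted p = 0.209). Rian had 2 probe sets called lower and 2 with positive differences that did not pass, and with its probe sets averaged it was not called (-0.10, adjusted p = 0.296); the cause was not tested.

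**Figure D3:**
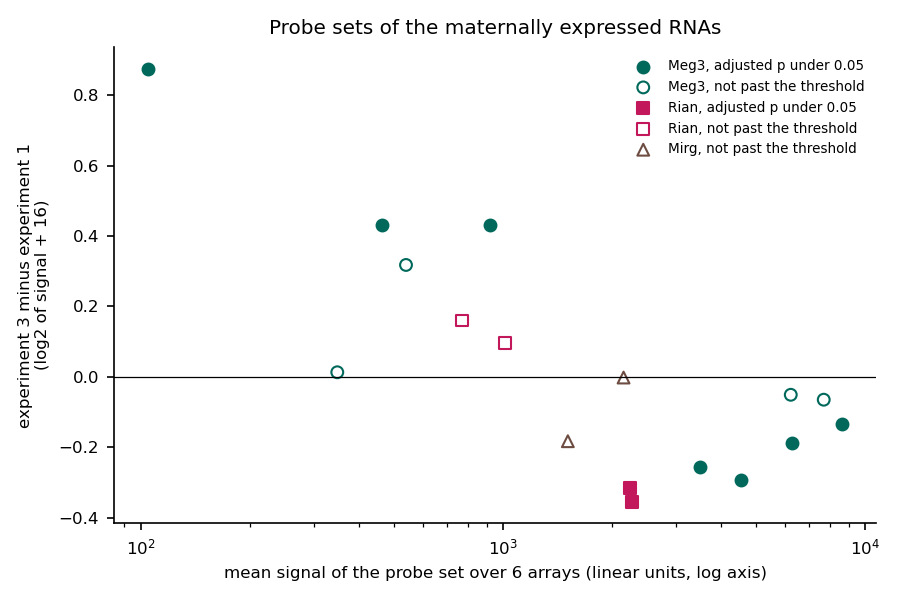
Difference between experiments 3 and 1 against the mean signal for each probe set of Meg3, Rian and Mirg above the limit; filled symbols had an adjusted p under 0.05. The bright probe sets of Meg3 lie under 0 and the dim ones above it, from -0.292 to 0.876.

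Mirg is the host of a microRNA cluster, with 10 hairpins inside its span in the RefSeq tables, while the span of Rian holds 3 and that of Meg3 holds 1. The arrays measured the host transcripts and no mature microRNA. On the brightest probe set of each gene, Mirg had the smallest difference between experiments 1 and 3 of the 4 tested genes of the cluster. Its second probe set gave -0.183 (adjusted p = 0.153 in the limma fit over all probe sets), larger in size than the -0.134 of Meg3. Mature microRNAs from the span of Mirg are shown because of the value on its brightest probe set. They are from RefSeq on GRCm38.p6, with the seed (bases 2 to 8) in capitals. The first 2 share a seed, the only one shared among the 19 mature sequences in the span, and miR-410-3p is given as an example with another seed.
mmu-miR-453: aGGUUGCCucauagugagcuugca
mmu-miR-496a-5p: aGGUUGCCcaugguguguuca
mmu-miR-410-3p: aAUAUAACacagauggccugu

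The remaining tested genes were not called between experiments 3 and 1. Peg3, a zinc finger protein, had 1784 and 1726, then 1626 and 1721, then 1761 and 1794 (0.02, 95% interval -0.13 to 0.16). The range was thus narrow on its brightest probe set. A second probe set of Peg3 had 1205 in the control of experiment 2 and 1550 to 1582 in the other arrays. Mest had 2969 and 3256, then 2625 and 3011, then 3017 and 2893 (-0.07, 95% interval -0.21 to 0.06). Kcnq1ot1, the paternally expressed noncoding RNA that spreads silencing over the cluster of Cdkn1c, had 0.09 (-0.18 to 0.36), while Cdkn1c was lower by 0.87. Dlk1 had 0.42 (0.02 to 0.82, adjusted p = 0.115), Plagl1, a zinc finger factor, 0.34 (adjusted p = 0.241), the matrix proteoglycan gene Dcn -0.10 and the organic cation transporter Slc22a18 -0.31 (adjusted p = 0.303). By parental origin as commonly given, 7 of 11 maternally expressed genes were called lower in experiment 3 and 1 higher, and 5 of 16 paternally expressed genes lower and 4 higher, beside 18.8% lower and 9.81% higher among all genes. The medians were -0.31 and -0.03, and a difference between these groups was not tested. Which allele each gene used in these cells was not measured. With the probe sets of each gene averaged, the maternally expressed Meg3, Rian and Gnas were not called, and Meg3 and Gnas turned positive. The paternally expressed Igf2, Ndn and Impact were not called in that fit either.

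The search for a short motif used the hexamer TGCCGC, which is bound by the imprint-protecting zinc finger protein Zfp57 when methylated, on both strands (TGCCGC or GCGGCA, which can overlap at their ends; a gene was counted once). Of 28 listed genes with a window of 250 bases before a start in RefSeq, 5 held it in at least 1 window, namely Mcts2, Meg3, Mest, Plagl1 and Zim1. That is 17.9%, against 9.8% of 27025 genes, but a gene with more windows has more chances to hold it. Counted by window, 6 of 44 held it (13.6%), against 8.7% of 32851 windows, and the 6 include overlapping windows of Mest. The median number of CpG dinucleotides was 8 in the windows of listed genes and 6 in all windows. A match is a string of letters and not a binding site. The windows of Mcts2, which was higher in experiment 3, and of Meg3, whose probe sets went both ways, are shown with the hexamer in capitals, on GRCm38.p6 and the plus strand.
Mcts2, chr2:152686898-152687147: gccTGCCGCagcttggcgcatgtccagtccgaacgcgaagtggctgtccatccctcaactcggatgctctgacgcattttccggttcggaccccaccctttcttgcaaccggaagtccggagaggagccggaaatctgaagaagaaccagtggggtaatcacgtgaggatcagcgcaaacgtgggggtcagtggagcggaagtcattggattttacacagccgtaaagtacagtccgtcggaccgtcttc
Meg3, chr12:109540746-109540995: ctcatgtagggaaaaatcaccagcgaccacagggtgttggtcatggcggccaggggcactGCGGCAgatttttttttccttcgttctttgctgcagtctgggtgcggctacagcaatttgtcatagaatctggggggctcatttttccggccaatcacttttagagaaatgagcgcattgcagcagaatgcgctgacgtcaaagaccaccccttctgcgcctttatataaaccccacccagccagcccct

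The shRNAmir 9 cells were set against both experiments with shRNAmir 11. A gene had to differ from experiment 1 and from experiment 3 in the same direction, and 0 of the 27 imprinted genes did so in limma. At an unadjusted p under 0.05 the number was also 0 of the 27, against 213 of 14185 genes. Over all 14185 genes 6 were called higher and 2 lower, which is 0.0423% and 0.0141%. Among the 8 was a gene with a very large difference. Eif2s3y, a Y-linked translation factor gene named after its values were seen, had 9 and 9.8 in experiment 1, 1474 and 1391 in experiment 2 and 10.9 and 19 in experiment 3.

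Against experiment 1 alone, 0 of the 27 were called in experiment 2, where 0.0705% of all genes were called higher and 0.0352% lower. The median of the differences was -0.011 over the 27 genes and -0.008 over all genes, and the median of their sizes was 0.14 and 0.0727. At an unadjusted p under 0.05 there were 4 of the 27 imprinted genes (Cdkn1c, Grb10, Phlda2 and Mest), against 632 of 14185 genes. That is a larger share of the imprinted genes than of all genes. Grb10 was at -0.18 (95% interval -0.28 to -0.08, adjusted p = 0.39) and Phlda2 at -0.31 (-0.53 to -0.10, adjusted p = 0.842). Neither passed the test after adjustment. Igf2r stood at 0.09 (-0.10 to 0.28) and Peg10 at -0.01 (-0.52 to 0.50). Against experiment 3, which is also one side of the contrast with experiment 1 above, 10 genes were called higher in experiment 2 and 4 lower, where 18.3% and 9.8% of all genes were, or 28.1% in all. Cdkn1c was higher in experiment 2 than in experiment 3 by 0.75 (SE 0.055, adjusted p = 2.15e-07), Slc38a4 by 0.69 (adjusted p = 1.33e-04) and Peg12 by 1.08 (adjusted p = 4.04e-04). Peg10 differed by -1.32 (adjusted p = 8.42e-04) and Impact by -0.44 (adjusted p = 8.26e-04). In plain signal, both arrays of experiment 2 lay above the 4 others for Igf2r, Mkrn3 and Slc38a4, which is 11.1% of the genes against 6.75% of all, and below them for Peg3, which is 3.7% against 6.81%. On the second probe sets of Igf2r, Slc38a4 and Peg3, the arrays of experiment 2 overlapped the others. The second probe set of Igf2r gave -0.154 for experiment 2 minus experiment 1.

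The second comparison asked whether knockdown of Geminin changed imprinted genes. With 3 GemKD and 3 control arrays, 0 of the 27 passed limma without a block, and 0 had an unadjusted p under 0.05. Over all 14185 genes 1 was called higher (0.00705%) and 0 lower, with 123 at an unadjusted p under 0.05. With the experiment as a block, 0 of the 27 were called, against 0.0141% of all genes called higher and 0.0211% called lower. In that fit 2 of the 27 had an unadjusted p under 0.05, against 675 of 14185 genes. The median difference was 0.02 over the 27 genes and 0.002 over all. The median distance from estimate to limit of the 95% interval was 0.371 without and 0.175 with the block, and it was narrower for bright genes such as Grb10 and wider for dim ones. Of the 27, 0 had all GemKD arrays above or below all controls on the probe set used, against 2.09% and 2.24% of all genes. A second probe set of Plagl1 had 39.0 and 18.9 in experiment 1, 33.6 and 19.4 in experiment 2 and 37.5 and 14.5 in experiment 3. A second probe set of Ascl2 had 34.2 and 22.8, then 49.6 and 28.9, then 57.7 and 27.2. On both, every GemKD array was below every control. Both were dim, and neither was called in the fit over all probe sets. They are taken from 85 probe sets of the listed genes, and the share of all probe sets separated this way is not given here. Another probe set of Plagl1 and 1 of Kcnq1ot1, both under the limit, were separated in the same direction. On the brightest probe sets of Plagl1 and Ascl2, GemKD and control arrays overlapped.

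None of the growth genes passed the test for treatment. Igf2r differed between GemKD and control by 0.05 (blocked 95% interval -0.10 to 0.21), Grb10 by 0.00 (-0.08 to 0.08) and Igf2 by 0.01 (-0.23 to 0.24). Cdkn1c had log2 ratios of 0.18, 0.04 and 0.05 in experiments 1, 2 and 3, all positive, and a blocked interval of -0.004 to 0.19. The same direction in all 3 experiments was also seen upward for Peg12 and downward for Dcn and Mcts2. That makes 7.41% of the genes in each direction, against 12.2% and 11.7% of all genes. Peg12 had ratios of 0.13, 0.40 and 0.68 and a mean of 0.41 (blocked 95% interval 0.10 to 0.72, unadjusted p = 0.0139, adjusted p = 0.91 in limma). Mirg had ratios of 0.13, -0.01 and 0.26 and a mean of 0.12 (blocked unadjusted p = 0.0464, adjusted p = 0.997). Neither passed the test.

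**Figure D4:**
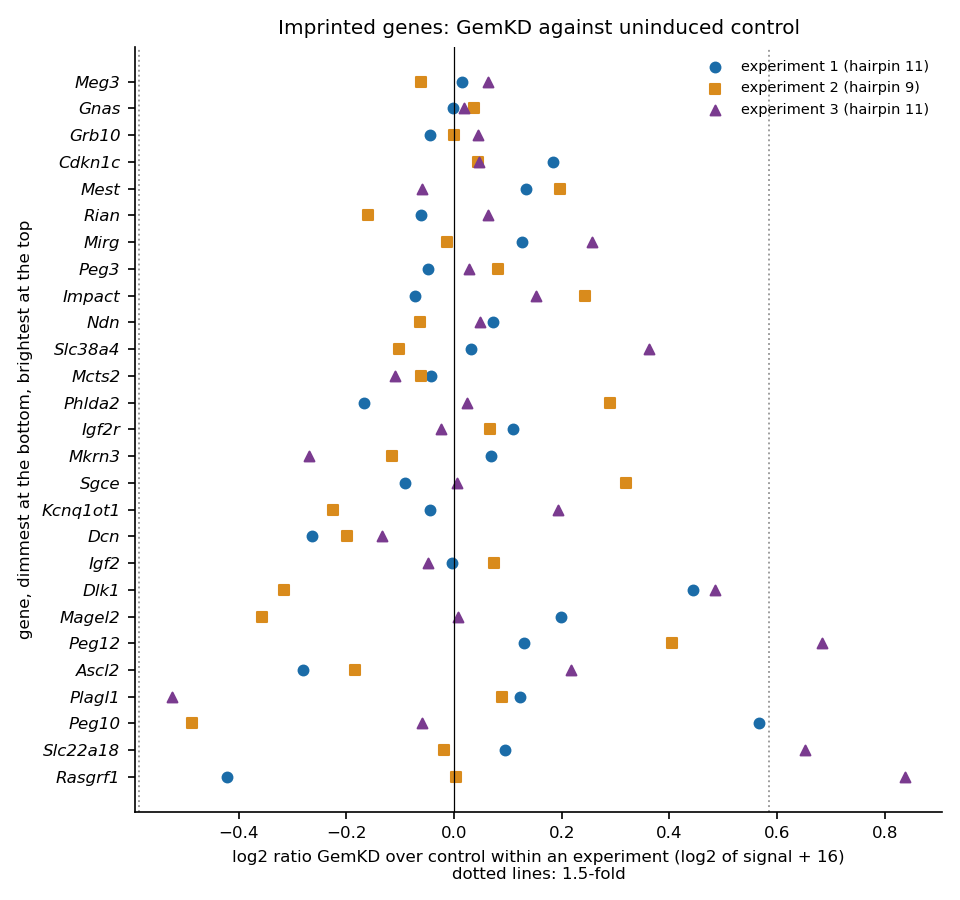
Log2 ratio of GemKD to control within each experiment for the 27 tested imprinted genes, ordered by mean signal; colours and shapes are experiments and dotted lines mark 1.5-fold. Points of the 3 experiments lie on both sides of 0 for all genes but Cdkn1c, Peg12, Dcn and Mcts2, and Rasgrf1, Peg12 and Slc22a18 pass 1.5-fold in experiment 3 only.

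Large ratios within an experiment belonged to dim genes. The 14 genes with a mean above 500 had ratios from -0.167 to 0.362, and the 13 dimmer ones from -0.524 to 0.838. A change of 1.5-fold was passed by 0 genes in experiment 1, 0 in experiment 2 and 3 in experiment 3, where 1.69%, 2.38% and 4.12% of all genes passed it. In experiment 3 these were Rasgrf1, a paternally expressed guanine nucleotide exchange factor for Ras, at 0.84, Peg12 at 0.68 and Slc22a18 at 0.65. Rasgrf1 had 36.0 and 22.8 in experiment 1, 26.4 and 26.6 in experiment 2 and 9.2 and 29.1 in experiment 3, so its GemKD arrays overlapped its controls. Slc22a18 had 55.7 and 60.5, then 49.2 and 48.4, then 31.6 and 58.7, where the control of experiment 3 was the lowest of the 6. A 1.5-fold change in all 3 experiments was found for 0 of the 27 and for 0.00705% of all genes upward and 0.0352% downward. Whether the response differed between the hairpins was tested as an interaction, with 0 of the 27 and 0 of 14185 genes called in limma. At an unadjusted p under 0.05 there were 0 of the 27 and 70 of 14185. The smallest p of an imprinted gene was that of Dlk1 (0.139), with ratios of 0.44 and 0.48 in the experiments of shRNAmir 11 and -0.32 in that of shRNAmir 9. The shRNAmir 9 ratio came from a single experiment, and the interval for Dlk1 ran from -1.91 to 0.35. This interaction fit did not pair the arrays by experiment. Differences in level between experiments 1 and 3 therefore entered its residual spread, and the fit with the experiment as a block is given with the alternatives below.

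Genes that maintain imprints or modify DNA methylation were read beside them. Of 23 tested among 25 listed, 9 were called lower and 4 higher in experiment 3 than in experiment 1, beside 18.8% and 9.81% of all genes. Tet2, a methylcytosine dioxygenase, averaged 837.8, 926.2 and 211.7 in experiments 1, 2 and 3 (-1.91, adjusted p = 7.76e-09). Dnmt3l, the cofactor of de novo methylation in germ cells, averaged 4434, 4345 and 1761 (-1.32, adjusted p = 4.9e-10). Zfp57 averaged 412.4, 437.7 and 188.4 (-1.05, adjusted p = 3.26e-05). These 3 were close between experiments 1 and 2 and lower in experiment 3. Dppa3, which protects maternal methylation in the zygote, averaged 118 and 75.1 in experiments 1 and 3 and 246.4 in experiment 2. It was higher in experiment 2 than in experiment 1 by 0.97 (adjusted p = 0.0148) and than in experiment 3 by 1.52 (adjusted p = 2.03e-06). It was the only one of the 23 called between experiments 2 and 1. Knockdown changed 0 of the 23 in either fit, with Zfp57 at 0.25 and Ctcf, the insulator protein of the Igf2-H19 region, at 0.19. The ratios in experiments 1, 2 and 3 were 0.47, 0.34 and -0.06 for Zfp57 and -0.05, 0.62 and 0.01 for Ctcf. The control of experiment 2, at 2438.5, was the lowest array for Ctcf.

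Of 43 further imprinted genes, 32 were tested, and 8 were called lower and 2 higher in experiment 3 than in experiment 1, in a contrast where 18.8% and 9.81% of all genes were. Calcr, the calcitonin receptor gene, averaged 29.0, 38.2 and 200.6 in experiments 1, 2 and 3 (2.27, adjusted p = 5.24e-07). Nap1l5, of the nucleosome assembly protein family, averaged 33.6, 34.3 and 89.7 (adjusted p = 0.0012 between experiments 3 and 1). Cobl, an actin nucleator, averaged 530.0, 595.8 and 123.8 (-1.96, adjusted p = 1.21e-08), and Ddc, the aromatic amino acid decarboxylase, 309.5, 342.8 and 159.5 (-0.90, adjusted p = 8.16e-05). Ddc and Cobl lie on either side of Grb10 in RefSeq order, and all of these neighbours were lower in experiment 3. Around Peg10 the neighbours were mixed, since Calcr was higher while Tfpi2, a protease inhibitor, was lower (54.3 and 18.9 in experiments 1 and 3, adjusted p = 0.00184), as was Casd1, named after its values were seen (-0.63, adjusted p = 6.64e-05). Between experiments 2 and 1, and between GemKD and control in either fit, 0 of the 32 were called.

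Markers of cell state moved with experiment 3. The summed signal of 8 naive pluripotency genes was 8923 to 10700 in experiment 1, 9616 to 11170 in experiment 2 and 3872 to 4350 in experiment 3, and 6 of the 8 were called lower in experiment 3 than in experiment 1. Neural progenitor genes summed to 5833 to 6185, 5107 to 5913 and 2884 to 3215, with 4 of 8 lower and 1 higher, and the neural factor Pax6 averaged 821.9, 691.4 and 146.4. Primed epiblast genes summed to 15070 to 15580, 15550 to 17120 and 21490 to 21910, with 4 of 6 higher and 1 lower. Fibroblast or feeder genes summed to 1315 to 1381, 1259 to 1414 and 629.6 to 720.7, with 4 of 8 lower and 1 higher, and Postn, a matrix gene of fibroblasts, averaged 254.9, 262.3 and 27.3. Endoderm genes had 0 of 8 called and Afp and Apoa1 were below the limit. Trophoblast genes had 2 of 8 called in each direction. The part of these states and cell types in the imprinted genes' differences was not tested. No gene of these lists was called between GemKD and control in either fit.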

How the data were processed

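RNA of 6 cultures was measured on Affymetrix Mouse Genome 430 2.0 arrays. The authors deposited 1 table of linear signal intensity per probe set; how background was corrected and arrays normalized is, in the sources used here, not given. Gene symbols came from the platform table: of 45037, 34945 had 1 symbol, 932 several and 9160 none, and those with several were not used for genes. Per gene the brightest probe set over the 6 arrays was kept. Genes with a mean above the 30th percentile (20.1) were fitted as log2(signal + 16) in limma 3.58.1 (R 4.3.3; lmFit, then eBayes with its trend option), with Benjamini-Hochberg adjustment over 14185 genes. The script was tested on simulated data. GemKD was compared with control without a block; experiments were compared with treatment as a term, which leaves few residual degrees of freedom. Experiment numbers pair the arrays, since the labels call them independent experiments and deviations from group means correlated at 0.489, 0.472 and 0.714 in experiments 1, 2 and 3. Signals of every array are given for genes with a mean above 500, called in a comparison, or past 1.5-fold in an experiment, and of other lists up to 5 genes by size are named. Alternatives were pseudocount, filter, scaling, probe set choice, trend, block and leaving out arrays. The members and lists were chosen with earlier results of these data known.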

Additional observations from a re-analysis of the deposited data

How the results depend on the processing

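Counts of imprinted genes called between experiments 3 and 1 were 17 in the fit reported, 11 with a gene's probe sets averaged, 9 without the intensity trend, 6 with a 1.5-fold limit added after seeing the data, and 12 to 17 when 1 array was left out. Over all genes the same count was 4051, with 2060 without the trend and 1344 with the 1.5-fold limit. Between experiments 2 and 3 they were 14, then 8 with the mean of probe sets, 8 without the trend, and 12 to 14 without 1 array. Over all genes 3985 were called between experiments 2 and 3 in the fit reported. For the other alternatives of these contrasts, counts are given for the imprinted genes only. Whether their falls exceed those over all genes cannot be read from them. With probe sets averaged, Meg3 turned to 0.10 between experiments 3 and 1 and to -0.14 between experiments 2 and 3. Gnas turned to 0.034 between experiments 3 and 1. The cause was not tested. The counts for knockdown, for the shRNAmir 9 cells and for the interaction were 0 under every alternative run, including the replicate block, which gave 0 imprinted genes for knockdown and 0 for the interaction and changed no other call. Over all genes the block moved the count for knockdown from 1 to 5 and for the interaction from 0 to 46, and experiments 1 and 2 fitted alone, added after seeing the data, gave 31 genes between them against 15. The interaction could not be fitted without an array of experiment 2. The number of arrays and the low signal of the dimmer genes limit the precision.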

Other observations

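Some imprinted transcripts were read only, or read brightly only, by probe sets that carry more than 1 symbol. These entered the fit over all probe sets but no comparison of genes above. The probe set of Mir675 and H19, the maternally expressed noncoding RNA next to Igf2, had 114.8 and 134.2 in experiment 1 (control, then GemKD), 175.5 and 133.3 in experiment 2 and 70.0 and 92.5 in experiment 3. Both arrays of experiment 3 were the lowest of the 6, but the difference from experiment 1 did not pass in the limma fit over all probe sets (-0.54, adjusted p = 0.0519). Of 6 probe sets annotated to Snurf and Snrpn, the 4 bright ones had both arrays of experiment 3 above the 4 others. The brightest had 3802 and 3664, then 3715 and 3576, then 4271 and 4382. In that fit all 4 were called higher in experiment 3 than in experiment 1 (adjusted p = 0.00268 to 0.0106).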
